A study of Homo sapiens with 10 samples.

Results

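The genes described here are 10 that carry glucose into the cell and convert it to lactate, namely SLC2A1, HK1, HK2, PFKP, ALDOA, GAPDH, PGK1, ENO1, PKM and LDHA. They were taken from a fixed list, matched by symbol to the Ensembl identifiers of the expression tables and of the m6A-seq peak lists, and all 10 were found among 58037 identifiers. The study compared A549, a human lung adenocarcinoma cell line, with A549/DDP, a cisplatin-resistant line derived from it (DDP is cisplatin). RNA was sequenced from 2 input libraries of each line, and fragments pulled down with an antibody against N6-methyladenosine (m6A) from 2 m6A-seq libraries of each line. Both lines were grown in RPMI medium with fetal bovine serum, penicillin and streptomycin at passages of 10 or fewer, with no drug named in the labels. The labels do not say whether replicates were separate cultures, and p-values therefore measure the spread between libraries only. The resistant line is not said to be a single clone, and the cell line field of its 2 inputs reads A549, so these libraries were placed by their titles and cell type field.

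Glycolysis splits glucose into pyruvate in a chain of cytosolic reactions that yields ATP and NADH. A transporter lets glucose in, a hexokinase traps it as glucose 6-phosphate, phosphofructokinase commits it to breakdown, and the later enzymes recover ATP before lactate dehydrogenase turns pyruvate into lactate and regenerates NAD. Many tumours and cultured carcinoma lines run this chain at a high rate in the presence of oxygen, and several of its genes are well-known targets of the hypoxia-inducible factor HIF-1.

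The 4 inputs held between 29225501 and 35286514 expected counts, of which at most 0.055% came from mitochondrial genes. A further pair of A549 inputs, whose titles differ from the first only by a full stop, stood apart, with 855034 and 982036 counts and a mitochondrial share of 75.2% and 73.9%. Only 856 and 943 counts in these libraries fell on the 10 genes, so they enter only as an alternative. The 6 epithelial markers summed to 8621 to 16047 TPM (a level corrected for transcript length and scaled to the same total in every library) in the 4 inputs. KRT7, KRT8 and KRT18 made up most of this sum. EPCAM stood at 2.45 to 6.95 TPM and CDH1 at 28.89 to 226.23 TPM. KRT19 stood at 33.34 and 63.95 TPM in A549 and at 9.24 and 0 TPM in A549/DDP. In the same libraries the 5 leukocyte markers summed to 0.25 to 4.86 TPM with CD3E at 0 throughout, the 4 endothelial markers to at most 0.40 TPM, and the 5 fibroblast markers to 3.04 to 20.26 TPM.

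Glucose-use transcripts took a larger share of the RNA in A549/DDP. The 10 genes summed to 15874 and 15457 TPM in the A549 replicates and to 21466 and 21045 TPM in the A549/DDP replicates, that is 1.59% and 1.55% against 2.15% and 2.10% of all TPM. These sums of the lines did not overlap. In the test across 16406 genes (edgeR quasi-likelihood, Benjamini-Hochberg adjusted p under 0.05), HK1, ALDOA, PGK1, GAPDH and PKM rose in A549/DDP and no listed gene fell. That makes 5 of 10 called, beside 14.9% of all genes tested in either direction, 6.85% higher and 8.0% lower. The median log2 fold change of the 10 genes was 0.56, against -0.0016 over all genes tested, and 9 of the 10 values were above 0. Levels are shares of a library, so fewer cells with a transcript and less of it per cell cannot be told apart.

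**Figure D1:**
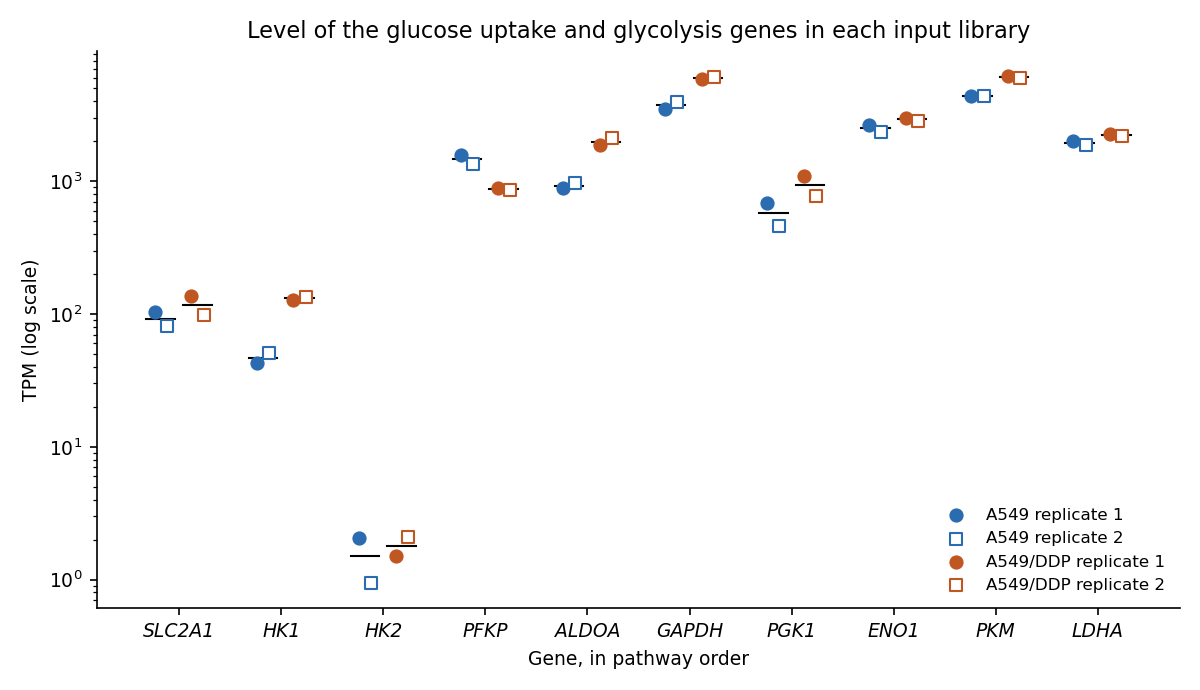
TPM of each gene (log scale) in the 2 A549 inputs (blue) and the 2 A549/DDP inputs (orange), with circles for replicate 1, open squares for replicate 2 and black lines for the mean of 2. The A549/DDP points lie above both A549 points for HK1, ALDOA, GAPDH, PGK1, ENO1, PKM and LDHA and below them for PFKP. For SLC2A1 and HK2 the ranges of the lines overlap.

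The order of the transcript levels spanned more than the difference between the lines. In A549 the mean TPM fell from PKM (4372) through GAPDH (3737), ENO1 (2508), LDHA (1950), PFKP (1459), ALDOA (928), PGK1 (572), SLC2A1 (92.5) and HK1 (46.9) to HK2 (1.51), and no pair of neighbours overlapped between replicates. In A549/DDP the order was PKM (6107), GAPDH (5958), ENO1 (2923), LDHA (2227), ALDOA (1989), PGK1 (928), PFKP (873), HK1 (131), SLC2A1 (117) and HK2 (1.80). There the neighbours PKM and GAPDH, PGK1 and PFKP, and HK1 and SLC2A1 overlapped. The TPM of the lines did not overlap for 8 of the 10 genes, beside 58.5% of all genes tested. The payoff-phase enzymes PKM, GAPDH and ENO1 together with LDHA thus headed the list in both lines, and the first steps (SLC2A1, HK1 and HK2) closed it.

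The promoter windows below are shown because several of the genes moved together and because an m6A-seq region of SLC2A1 reached its start site. Each is the 250 bases just before an annotated start site from RefSeq (GRCh38.p14), read 5′ to 3′ on the gene's strand, and lies outside the gene's span. Capitals mark ACGTG or GCGTG, the core of the hypoxia response element, searched on both strands (CACGT and CACGC on the other). The palindrome CACGTG, the E-box of MYC and related factors, holds ACGTG on both strands and is 1 stretch of capitals. PGK1 (chrX:78103998-78104247, plus strand) and ALDOA (chr16:30064029-30064278, plus strand) rose, LDHA (chr11:18394313-18394562, plus strand) did not pass the test, and SLC2A1 (chr1:42958869-42959118, minus strand) did not either.
PGK1: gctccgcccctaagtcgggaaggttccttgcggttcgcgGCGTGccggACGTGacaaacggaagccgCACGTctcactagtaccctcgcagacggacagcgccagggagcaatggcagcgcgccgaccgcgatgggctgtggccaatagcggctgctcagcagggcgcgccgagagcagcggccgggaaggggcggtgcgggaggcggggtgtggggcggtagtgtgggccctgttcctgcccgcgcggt
ALDOA: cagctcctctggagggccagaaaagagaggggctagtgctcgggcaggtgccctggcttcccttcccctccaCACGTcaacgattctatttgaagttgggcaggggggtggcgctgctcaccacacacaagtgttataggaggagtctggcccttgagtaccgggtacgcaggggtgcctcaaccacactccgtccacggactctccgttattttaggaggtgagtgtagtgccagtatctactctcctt
LDHA: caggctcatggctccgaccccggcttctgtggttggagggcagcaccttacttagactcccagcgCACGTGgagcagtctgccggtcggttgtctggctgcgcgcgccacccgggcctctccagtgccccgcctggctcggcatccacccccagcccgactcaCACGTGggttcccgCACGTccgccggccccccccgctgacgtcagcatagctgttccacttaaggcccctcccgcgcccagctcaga
SLC2A1: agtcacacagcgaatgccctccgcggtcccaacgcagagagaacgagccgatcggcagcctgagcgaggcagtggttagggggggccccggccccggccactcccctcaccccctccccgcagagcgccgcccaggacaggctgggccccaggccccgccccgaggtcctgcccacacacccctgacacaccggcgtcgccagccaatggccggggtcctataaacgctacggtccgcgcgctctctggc
In the windows printed, the letters stood at 3 stretches in the PGK1 window, 1 in that of ALDOA, 3 in that of LDHA, where 2 are CACGTG, and 0 in that of SLC2A1. All 10 genes matched the table, with 23 windows in all because 5 of them have several start sites, and 13 windows (56.5%) held at least 1 match. Of all 35116 windows of this length 43.2% held one. ALDOA has 3 windows and LDHA 2, and only the first of each is printed. HK1, the listed gene with the largest rise, is not printed. It has 7 windows, of which only number 6 held a match. Of the other genes that rose, PKM had 0 stretches in its window and GAPDH had 1. Of those not called, HK2 had 3 and 4 stretches in its windows, ENO1 had 2, and PFKP had 0, 0, 1 and 3. A match is a string of letters, not a bound site, and any part of these letters in the differences between the lines was not tested.

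SLC2A1 (GLUT1, the main basal glucose transporter; chr1:42925353-42958868, minus strand) was measured at 103.67 and 81.24 TPM in A549 and at 135.99 and 97.86 TPM in A549/DDP. The ranges overlapped, and the A549/DDP replicates were farther apart than the means of the lines. Its log2 fold change of counts was 0.10 (SE 0.24; 95% interval -0.48 to 0.69; edgeR adjusted p = 0.837). It supplied 66.0% to 80.9% of the summed TPM of the 7 glucose transporter genes listed, with no separation of the lines. The direction of the SLC2A1 difference was not stable, at -0.15 without A549 replicate 2 and -0.09 without A549/DDP replicate 1.

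Among the 10 listed genes the largest difference was that of HK1. HK1 (the broadly expressed hexokinase bound to mitochondria; chr10:69270000-69401882, plus strand) stood at 42.90 and 50.81 TPM in A549 and at 128.01 and 133.83 TPM in A549/DDP. Both A549/DDP values lay far above both A549 values. The log2 fold change was 1.48 (SE 0.16; 95% interval 1.10 to 1.87), a 2.80-fold rise with an edgeR adjusted p of 0.00488. HK2 (the inducible hexokinase of muscle, fat and many tumours; chr2:74834127-74893359, plus strand) was near the floor of the list, at 2.07 and 0.95 TPM in A549 and 1.5 and 2.09 TPM in A549/DDP. Its replicates were farther apart than the lines (log2 fold change 0.16, 95% interval -1.66 to 1.97, edgeR adjusted p = 0.924), and the sign turned to -0.37 without A549 replicate 2 and to -0.18 without A549/DDP replicate 2.

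The hexokinase make-up differed between the lines. HK1 gave 14.2% and 18.8% of the TPM summed over 4 hexokinase genes in A549 and 55.5% and 56.8% in A549/DDP. HKDC1, a hexokinase-like gene next to HK1 on chromosome 10, gave 85.1% and 80.9% against 43.8% and 41.5%. HKDC1 stood at 256.82 and 218.80 TPM in A549 and at 101.02 and 97.72 TPM in A549/DDP and fell, with a log2 fold change of -1.06 (SE 0.18; edgeR adjusted p = 0.0164). Without A549/DDP replicate 2 the HKDC1 call was lost (-0.95, adjusted p = 0.0928). The family's summed TPM was 301.79 and 270.56 in A549 and 230.72 and 235.57 in A549/DDP. In TPM, HK1 thus rose while the sum over the family was lower in both A549/DDP libraries. The family was not summed on the count scale that the test uses. HK2 gave at most 0.887% in any input.

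**Figure D2:**
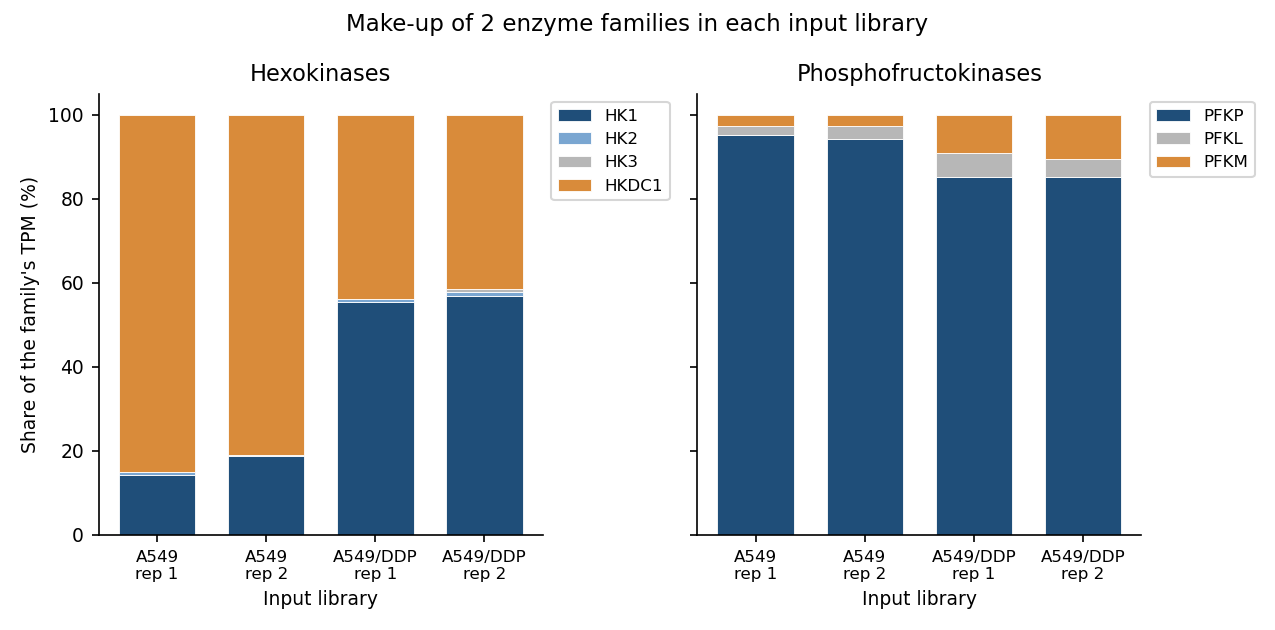
Share of each gene in the TPM summed over its enzyme family (%), for 4 hexokinase genes (left) and 3 phosphofructokinase genes (right), 1 bar per input library. HK1 rises from 14.2% and 18.8% in A549 to 55.5% and 56.8% in A549/DDP, and PFKP makes up at least 85.0% of its family in every library.

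PFKP (the platelet-type phosphofructokinase, the committed step; chr10:3067548-3136805, plus strand) was the exception in direction. It stood at 1566.88 and 1350.77 TPM in A549 and at 890.51 and 854.66 TPM in A549/DDP. Both A549/DDP values lay below both A549 values. Its log2 fold change was -0.66 (SE 0.21; 95% interval -1.16 to -0.15), and the edgeR adjusted p of 0.0856 missed the threshold. The call depended on the setting, since 7 of 10 alternatives on the same libraries put PFKP under 0.05, from 0.00589 with DESeq2 to 0.0444 with limma on log2(FPKM + 1). Leaving out A549 replicate 1 gave -0.39 (adjusted p = 0.00654) and leaving out A549 replicate 2 gave -0.91 (adjusted p = 1.37e-09), each with the spread estimated from the other arm, whereas without either A549/DDP replicate it was not called. PFKM, the muscle-type enzyme, rose from 45.32 and 40.10 TPM to 95.27 and 105.57 TPM (log2 fold change 1.10, SE 0.21, edgeR adjusted p = 0.0231). PFKM reached an adjusted p of 0.0927 without A549/DDP replicate 1. PFKP still gave 95.2% and 94.1% of the family's TPM in A549 and 85.1% and 85.0% in A549/DDP.

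ALDOA (aldolase A, which splits fructose 1,6-bisphosphate; chr16:30064279-30070420, plus strand) rose from 893.13 and 962.83 TPM in A549 to 1876.26 and 2102.55 TPM in A549/DDP. The lines were well apart, and the replicates of each line were close. The log2 fold change was 1.10 (SE 0.14; 95% interval 0.76 to 1.45; edgeR adjusted p = 0.00778), a 2.15-fold difference.

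GAPDH (glyceraldehyde 3-phosphate dehydrogenase, often used as a reference transcript; chr12:6534517-6538371, plus strand) stood at 3517.73 and 3957.07 TPM in A549 and at 5860.34 and 6056.17 TPM in A549/DDP. Every A549/DDP value lay above every A549 value. The log2 fold change was 0.67 (SE 0.13; 95% interval 0.36 to 0.99; edgeR adjusted p = 0.0233), a 1.59-fold rise of a gene that is commonly held constant between samples. PGK1 (phosphoglycerate kinase, the first ATP-yielding step; chrX:78104248-78129295, plus strand) was at 683.24 and 459.87 TPM in A549 and at 1089.27 and 767.26 TPM in A549/DDP. The lines did not overlap, although the PGK1 replicates of each line were spread widely in TPM. On counts the PGK1 difference was 1.01 (SE 0.17; 95% interval 0.59 to 1.43; edgeR adjusted p = 0.016).

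ENO1 (alpha-enolase; chr1:8861000-8878686, minus strand) was at 2664.43 and 2351.26 TPM in A549 and at 3012.21 and 2834.76 TPM in A549/DDP. The lines did not overlap, but the gap was smaller than the distance between the A549 replicates. Its log2 fold change of 0.45 (SE 0.19; 95% interval -0.01 to 0.91; edgeR adjusted p = 0.163) was not called. Of 10 alternatives on the same libraries 0 called it. The value was 0.22 without A549 replicate 2 and 0.68 without A549 replicate 1, each a fit with 1 A549 library. Against the further A549 pair it was 1.07 (edgeR adjusted p = 0.000195), in a fit where the median of all genes was itself shifted to 0.80. PKM (pyruvate kinase of muscle and most dividing cells, the second ATP-yielding step; chr15:72199029-72231591, minus strand) was at 4380.74 and 4362.67 TPM in A549 and at 6189.40 and 6023.67 TPM in A549/DDP. The PKM replicates were close and the lines apart, with a log2 fold change of 0.67 (SE 0.14; 95% interval 0.34 to 1.01; edgeR adjusted p = 0.0276). Its splice forms PKM1 and PKM2 are summed in a gene-level value. PKLR, the liver and red-cell pyruvate kinase, reached at most 0.91 TPM.

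LDHA (lactate dehydrogenase A, which makes lactate; chr11:18394563-18408425, plus strand) stood at 2019.68 and 1879.74 TPM in A549 and at 2282.41 and 2172.14 TPM in A549/DDP. Both A549/DDP values were above both A549 values, by little. The log2 fold change was 0.16 (SE 0.14; 95% interval -0.18 to 0.51; edgeR adjusted p = 0.493). The A form gave 60.6% to 66.0% of lactate dehydrogenase TPM, LDHB the remainder, and LDHC was at 0.

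The calls rested on few libraries. HK1 and ALDOA stayed under 0.05 in each of the 4 fits that left out 1 input. GAPDH, PGK1 and PKM lost their calls without A549/DDP replicate 1 (adjusted p of 0.136, 0.071 and 0.148) and without A549/DDP replicate 2 (0.13, 0.0534 and 0.105), with log2 fold changes between 0.62 and 1.03. Of the 5 genes called, 2 were left in each of these fits. In the fit that added the further A549 pair to the first, 0 of the 10 genes were called by edgeR and 2 had an unadjusted p under 0.05, with HK1 at an adjusted p of 0.0589.

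The further A549 pair read the genes at other levels. PKM stood at a mean of 266 TPM there, LDHA at 96.0, ENO1 at 80.9 and GAPDH at 61.3, and HK2 had 0 counts in both libraries. The 10 genes summed to 581.49 and 549.22 TPM, and to 1356 TPM on average once mitochondrial genes were left out of the total, against 15874 and 15457 TPM in the first pair. Set against this pair, PFKP was higher in A549/DDP (log2 fold change 1.00, edgeR adjusted p = 0.00162) rather than lower, in a fit where the median of all genes was itself shifted to 0.80.

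**Figure D3:**
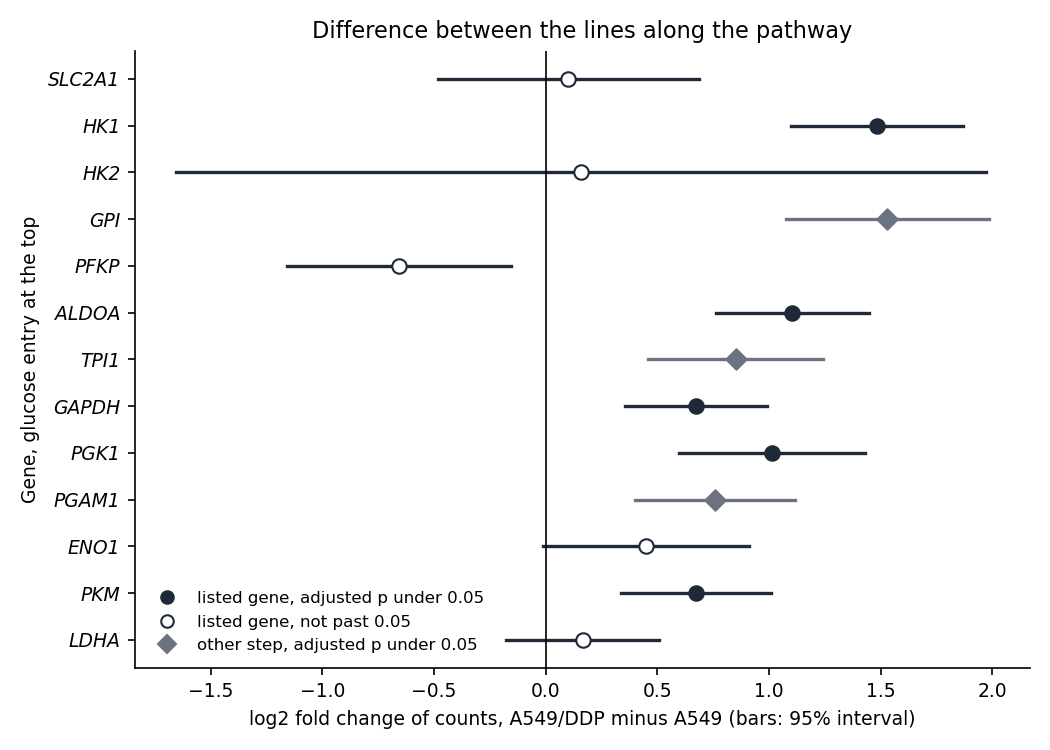
Log2 fold change of counts between A549/DDP and A549 with its 95% interval (2 against 2 inputs, edgeR), in pathway order from glucose entry at the top to lactate at the bottom. Filled symbols passed an adjusted p of 0.05, open circles did not, and diamonds are the 3 steps outside the list. HK1 (1.48) and GPI (1.53) lie farthest to the right and PFKP (-0.66) is the sole value left of 0.

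The 3 steps of the chain outside the list also rose. GPI (phosphoglucose isomerase) went from 293.51 and 425.92 TPM in A549 to 1032.80 and 980.03 TPM in A549/DDP (log2 fold change 1.53, SE 0.19, edgeR adjusted p = 0.00686). TPI1 (triose phosphate isomerase) differed by 0.85 (SE 0.16, edgeR adjusted p = 0.022) and PGAM1 (phosphoglycerate mutase) by 0.76 (SE 0.15, edgeR adjusted p = 0.0237). The lines did not overlap in TPM for any of these 3. TPI1 and PGAM1 were not called without A549/DDP replicate 1 (0.12 and 0.127) or replicate 2 (0.093 and 0.157). Counted from the transporter to lactate dehydrogenase, 8 of these 13 genes rose, beside 6.85% of all genes tested. None of the 13 was called lower, beside 8.0%. The count leaves out the sister isoenzymes, of which 2 rose and 1 fell. The one that fell was HKDC1 (log2 fold change -1.06), the main hexokinase transcript of A549.

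Genes next to the chain were read from further lists. Of 23 sister isoenzymes and transporters 15 were tested, 2 rose (PFKM, and ADPGK, an ADP-dependent glucokinase) and 1 fell (HKDC1), that is 3 of 15 called beside 14.9% of all genes tested. Of 9 regulators tested 2 rose, beside 6.85% of all genes tested, and the list's median log2 fold change was -0.11. The 2 were MLXIPL (ChREBP, a glucose-sensing transcription factor; 2.81 and 6.50 TPM against 10.71 and 25.82 TPM) and its paralogue MLXIP (MondoA). Among 4 lactate transport genes tested 1 was called, beside 14.9% of all genes tested. It was BSG (basigin, the chaperone of the lactate exporters), which rose with a log2 fold change of 1.02 (SE 0.15; edgeR adjusted p = 0.0104), from 402.70 and 440.60 TPM to 863.86 and 976.45 TPM. BSG was at adjusted p values of 0.0602 and 0.0502 without A549/DDP replicate 1 or 2. With limma on log2 TPM or FPKM MLXIP, MLXIPL and ADPGK were not called, the lowest adjusted p being 0.349, 0.106 and 0.076. MLXIPL was not called without A549 replicate 1 (adjusted p = 0.0516) or A549/DDP replicate 2 (0.0639), and MLXIP (0.125 and 0.0886) and ADPGK (0.238 and 0.164) were not called without either A549/DDP replicate in turn.

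At the entry of pyruvate into mitochondria 1 of 13 genes was called, a share below that of all genes tested. PDK4 (pyruvate dehydrogenase kinase 4, which switches the pyruvate dehydrogenase complex off) stood at 8.46 and 10.77 TPM in A549 and at 105.09 and 123.92 TPM in A549/DDP. On counts the lines were 10.0-fold apart (log2 fold change 3.33, SE 0.19, edgeR adjusted p = 0.00156), more than for any of the 10 listed genes. Of 6 gluconeogenesis genes tested 1 was called (16.7%, near the share of all genes), PCK2 (mitochondrial phosphoenolpyruvate carboxykinase), which fell by 1.33 on the log2 scale (SE 0.22; edgeR adjusted p = 0.0141) from 88.57 and 94.81 TPM to 40.94 and 27.57 TPM. Without A549/DDP replicate 2 PCK2 had an adjusted p of 0.0567.

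Hypoxia-inducible genes outside glycolysis did not move in 1 direction. Of 16 tested, 3 rose and 5 fell, with a median log2 fold change of -0.43 against 0.56 for the 10 glucose genes. In either direction 8 of these 16 were called, beside 5 of the 10 glucose genes and 14.9% of all genes tested. A high share of calls was therefore not confined to the glucose genes. CA12 (a carbonic anhydrase) rose from 58.21 and 162.46 TPM to 789.84 and 828.17 TPM, and EGLN3 (a HIF prolyl hydroxylase) from 3.11 and 2.83 TPM to 27.96 and 19.50 TPM. ADM (adrenomedullin) fell by 3.37 on the log2 scale (SE 0.36; edgeR adjusted p = 0.00488), from 437.54 and 341.15 TPM in A549 to 53.65 and 37.58 TPM in A549/DDP. PLOD2 (a collagen lysyl hydroxylase) fell by 1.08 on the log2 scale (SE 0.25; edgeR adjusted p = 0.0387), and by 0.93 without A549/DDP replicate 1, where it was not called (adjusted p = 0.133). Over all 7 lists around the chain, 12 genes rose and 7 fell among 66 tested, which is 28.8% called beside 14.9% of all genes tested. Of these 19 calls, 8 came from the hypoxia list, with 5 of the 7 falls, and 3 were GPI, TPI1 and PGAM1. The pooled share therefore does not stand for the remaining lists. Called there were 3 of 15 sister isoenzymes and transporters, 2 of 9 regulators and 1 of 4 lactate transport genes. Pyruvate entry had 1 of 13 and gluconeogenesis 1 of 6.

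Transcript length changed what the units showed for several genes. The annotated length weighted over the transcripts of PKM was 1512.39 and 1547.58 bases in A549 and 1740.95 and 1738.58 bases in A549/DDP, 13.7% longer. That of ENO1 was 1432.26 and 1365.46 bases against 1644.10 and 1638.34 bases, 17.3% longer. SLC2A1 was 12.5% shorter, from 2045.98 and 2087.27 bases to 1708.35 and 1908.22 bases. These 2 longer and 1 shorter genes, with lines not overlapping and a change of at least 10%, stand beside 12.5% of all genes tested that were longer and 12.2% shorter by the same rule. Counts rise with transcript length and TPM are corrected for it, and the log2 ratio of mean TPM was accordingly below the count difference for PGK1 (0.70 against 1.01), PKM (0.48 against 0.67) and ENO1 (0.22 against 0.45) and above it for SLC2A1 (0.34 against 0.10). The weighted length of PGK1 was 1126.48 and 1496.44 bases in A549 and 1372.36 and 1859.49 bases in A549/DDP, so for PGK1 the lines overlapped in length. For HK1, ALDOA and GAPDH both scales gave the same value to within 0.01. With limma on log2(TPM + 1) PGK1 was not called (0.70, adjusted p = 0.134), nor was PKM with limma on log2(TPM + 0.1) (0.48, adjusted p = 0.0576).

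The gene whose profile over the 4 inputs lay nearest to that of HK1, the listed gene with the largest change, was MICALL2, an adaptor protein. Likeness was the root mean square distance of log2(TPM + 1) centred on each gene's mean, over 9470 genes with a mean of at least 10 TPM outside the lists. The distance was 0.033 for MICALL2, 0.0375 for CST3 (cystatin C) and 0.0455 for NAMPT (a rate-limiting enzyme of NAD salvage). CST3 went from 123.17 and 146.27 TPM to 361.59 and 358.26 TPM, and NAMPT from 197.90 and 221.28 TPM to 599.65 and 588.70 TPM. With 4 libraries from 2 lines this likeness amounts to a similar step between the lines.

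m6A is a methyl mark on adenosines of messenger RNA that reader proteins recognise and that is typically dense near stop codons. In the m6A-seq libraries, 6 of the 10 genes had a called peak in at least 1 library and 2 in all 4, beside 57.0% and 13.9% of all genes tested for expression. By library, 2, 3, 4 and 4 of the genes had a peak (A549 replicates 1 and 2, A549/DDP replicates 1 and 2), beside 43.7%, 30.6%, 40.7% and 22.2% of tested genes. A peak in both libraries of a line was called for SLC2A1 and ENO1 alone, in A549 (27.1% of tested genes) as in A549/DDP (19.5%). The lists differ in length, with 26320 and 14576 peaks in A549 and 27244 and 10661 in A549/DDP, and hold no level, so calls were compared and no test was made. PFKP, ALDOA and LDHA, all at 854.66 TPM or more in each of the 4 inputs, had no peak in any library, and neither had HK2.

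SLC2A1 carried the mark calls most regularly, with 7 and 6 peaks in A549 and 7 and 5 in A549/DDP. Merged where exon blocks shared a base, these made 6 regions, of which 4 were called in all 4 libraries. The region at its 5′ end (chr1:42958675-42958924, hg38) covers 250 bases and runs 56 bases past the RefSeq start into the promoter window printed above. The region nearest the 3′ end that all libraries shared (chr1:42926470-42927216) covers 747 bases, and its last base lies 1117 bases before the annotated gene end. The SLC2A1 peak p-values ran from 5.8e-06 to 0.023 and from 4.7e-07 to 5e-05 in A549, and from 2.1e-06 to 0.00011 and from 0.00043 to 0.00083 in A549/DDP. The lowest SLC2A1 p-value was thus least extreme in A549/DDP replicate 2, and at a p-value of 1e-05 or below that library kept 0 SLC2A1 peaks. The other lists were also cut to the 10661 peaks of lowest p-value, the full length of the A549/DDP replicate 2 list. SLC2A1 then had 6 peaks in A549 replicate 2 and 0 in the replicates numbered 1. Its 5 peaks in A549/DDP replicate 2 stayed because that list was not cut.

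ENO1 had 1 and 3 peaks in A549 and 4 and 2 in A549/DDP. Its region at the 5′ end (chr1:8874849-8878705), spread over 3 exon blocks that total 248 bases, was called in all 4 libraries. A second region in the 3′ part of ENO1 (chr1:8862904-8865377) was called in every library except A549 replicate 1. PKM had 3 peaks in A549 replicate 2, 3 in A549/DDP replicate 2 and 0 in the other libraries, so 1 library of each line had peaks and 1 had none. Of its 5 regions, 1 (chr15:72219003-72221224) was shared by these 2 libraries.

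The other calls stood in 1 library each. HK1, the gene with the largest rise, had 6 peaks in A549/DDP replicate 1 with p-values from 1.9e-08 to 5.9e-07 and 0 in A549/DDP replicate 2. GAPDH had 4 peaks in A549/DDP replicate 2, 3 of them with a p-value written as 0, and 0 in replicate 1. PGK1 had 2 peaks in A549/DDP replicate 1, both listed with a p-value of 0.025. Of the 26 merged regions of the 6 genes, 18 were called in a single library, 5 in all 4, and 0 in both libraries of 1 line with none in the other. No listed gene therefore showed a region that separated the lines in both replicates. Regions were merged for the listed genes only, so no share over all genes stands beside these counts. Whether such counts are usual for these lists was not tested.

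**Figure D4:**
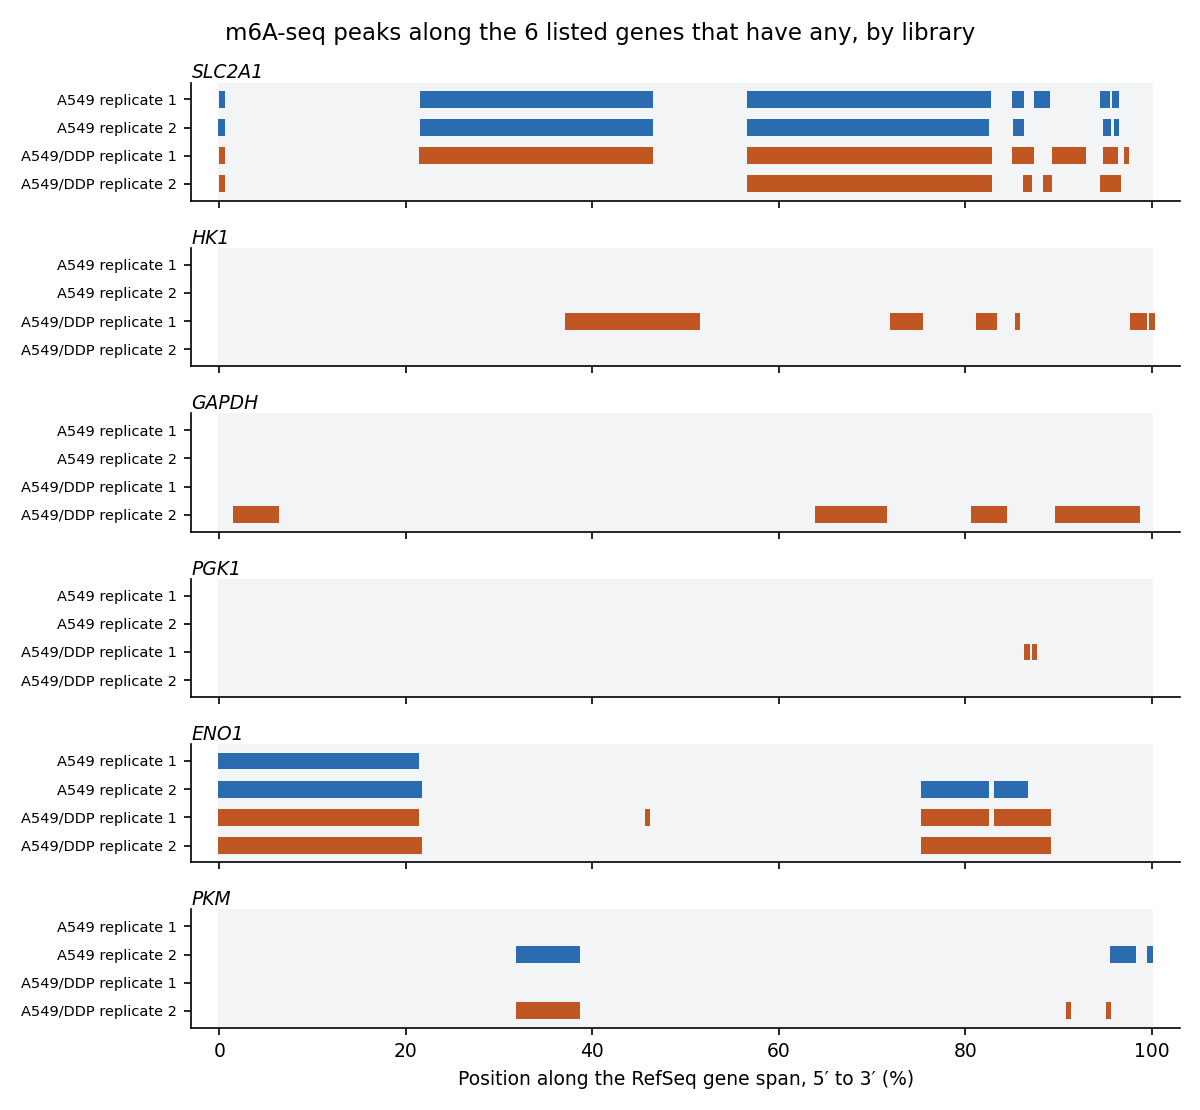
Called m6A-seq peaks along the 6 listed genes that have any, as outer limits with introns included, against position along the RefSeq gene span (% from the 5′ end), in A549 (blue) and A549/DDP (orange) replicates. SLC2A1 and ENO1 carry peaks in all 4 libraries, PKM in 1 replicate of each line, and HK1, PGK1 and GAPDH in 1 A549/DDP replicate each.

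Reads shared with processed pseudogenes bore little on these values. The counts assigned to the 6 LDHA pseudogenes were 0.254% to 0.481% of those of gene and pseudogenes together, those of the 65 GAPDH pseudogenes at most 0.044%, and those of each other gene at most 0.014%. With pseudogene counts added, the same 5 genes were called. In RefSeq, HK1, SLC2A1, PFKP, ALDOA and ENO1 each overlap 1 other annotated gene, and a share of their reads could belong to it.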

How the data were processed

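Input RNA of the 2 lines was measured in 2 libraries each, and m6A-seq peaks in 2 libraries each, from poly(A)-selected RNA with strand-specific dUTP libraries read as paired ends. The authors deposited 1 gene table per input library, with expected counts, TPM, FPKM and transcript lengths weighted over isoforms, in the layout that RSEM writes. The labels name hg38, STAR, RSEM and bedtools without versions. The authors also deposited 1 peak list per m6A-seq library with a p-value per peak, and the peak caller, and whether the p-value is adjusted, are not given in the sources used here. The m6A-seq lists of A549 were assigned to replicates by the labels, whose numbers are the reverse of those in the list names.

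Expected counts were rounded to whole numbers and tested in edgeR 4.0.16 (filterByExpr, TMM scaling, quasi-likelihood F test, R 4.3.3) over 16406 genes, 2 libraries against 2, with Benjamini-Hochberg adjustment and a threshold of 0.05. The standard error is the size of the log2 fold change over the square root of F. The fit was tested on simulated data first. DESeq2 1.42.0 and limma 3.58.1 on log2(TPM + 1), log2(TPM + 0.1) and log2(FPKM + 1) were alternatives (mean TPM or FPKM no lower than 1), beside other scalings, filters, pairs of inputs and each library left out. Fold changes on the log2(value + pseudocount) scale understate low genes. Peaks of a gene were joined into 1 region if any exon block of theirs overlapped, by 1 base or more, with strand respected. Depth was 29225501 to 35286514 counts in the libraries compared, and fragments without molecular identifiers are not independent molecules. Genes were named as follows: all 10 members, GPI, TPI1 and PGAM1, up to 3 rises and 3 falls per further list, and the 3 genes nearest to the most changed member. Some items are not reported here. The members, the lists and the tests were chosen with earlier results of these data known.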

Additional observations from a re-analysis of the deposited data

How the results depend on the processing

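Of the 10 genes, 5 were called in the fit reported, all higher in A549/DDP. Under the other tools, scalings, filters and units on the same inputs 4 to 6 were called. Of those, 3 to 5 were higher and at most 1, PFKP, was lower. With the further A549 pair in place of the first 7 were called, and with both pairs together 0. Leaving out 1 library gave 2 to 7. The median log2 fold change of the 10 genes, 0.56, was 0.40 with limma on log2(TPM + 1), 1.18 with the further pair and 0.40 to 0.72 with 1 library left out. With the further pair the median over all genes tested was itself 0.80, against -0.0016 in the fit reported. Over all genes, 2437 calls became 4326 with DESeq2, 4010 without a filter, 1492 and 1177 with limma on log2(TPM + 1) and log2(TPM + 0.1), 3758 with the further pair and 677 with both pairs, and 2052 to 3809 with 1 library left out. The 19 genes called in the lists around the chain became 3 with both pairs and 10 to 23 with 1 library left out. Signs turned for PFKP (1.00) and HKDC1 (0.48) with the further pair, for SLC2A1 without A549 replicate 2 (-0.15) or A549/DDP replicate 1 (-0.09), its values with 1 library left out running from -0.15 to 0.37, and for HK2 without A549 replicate 2 (-0.37) or A549/DDP replicate 2 (-0.18), with a range from -0.37 to 0.95. The causes were not tested.

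With the replicate number as a block, 6 of the 10 genes were called with a median of 0.57, PFKP being the addition (-0.64, edgeR adjusted p = 0.0285), and 23 genes of the other lists. The labels do not say that a number pairs libraries, and same-numbered libraries deviated together with a correlation of 0.026, so the block stays an alternative.

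The summed TPM of the further A549 pair was 1355.5 over nonmitochondrial genes. For m6A-seq, 2 genes of the 10 had a peak in both libraries of either line. At p-values of 1e-05 or below it was 1 in A549 and 1 in A549/DDP, in lists of equal length 1 and 0, and 6 in A549/DDP when either library sufficed. With 1 library left out it was 2 to 3 in A549 and 4 in A549/DDP either way. Merged regions in both libraries, 6 in each line, were 1 and 2 at the stricter p-value, 1 and 0 in lists of equal length, and 6 to 10 and 13 to 17 with 1 library left out. With 2 libraries a line, the intervals of ENO1, LDHA and SLC2A1 include 0 and do not show that the lines were alike in these genes.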
